A study of Homo sapiens with 9 samples.

Results

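The genes described here encode the proteins of the cytosolic ribosome. They were selected from the count table by symbol: RPL or RPS followed by a number, with at most an A, X or L after it, or RPLP0, RPLP1, RPLP2, RPSA or FAU, without pseudogenes. This gave 82 of the 28514 rows, and 80 of them were among the 13802 genes that passed a filter on low counts. The symbols alone, and no measured value, define the family.

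RNA was sequenced from 9 libraries of CI-huVEC at passage 31, an endothelial line from the human umbilical vein that is sold in immortalized form. The 3 groups of 3 libraries were: wild-type cells without treatment (1, 2 and 3), CCM3 -/- knockout clones without treatment (21, 22 and 23), and those clones again after 48 h on fibronectin, a protein of the extracellular matrix, at 5 µg per square centimetre. Loss of CCM3, which carries the symbol PDCD10 in the files, underlies one inherited form of cerebral cavernous malformation, and the clones were edited with CRISPR/Cas9 in exon 3. No wild-type library on fibronectin is analysed here, so an effect of fibronectin in wild-type cells was not measured. The title of the series concerns whether rescue by fibronectin goes along with early changes in mRNA. The labels do not say whether the wild-type libraries came from separate cultures, so p-values measure the spread between these libraries, which may be technical in part.

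A ribosome has a small subunit, which reads the mRNA, and a large subunit, which joins the amino acids, and each carries many proteins around a core of ribosomal RNA. Most of the proteins are needed in equal numbers, and their mRNAs are among the most abundant in growing cells. Most of these mRNAs in vertebrates begin with a C followed by a run of pyrimidines, the terminal oligopyrimidine or TOP motif, through which the kinase mTORC1 and the RNA-binding protein LARP1 govern their translation and stability. The abundance of the mRNA alone therefore does not give the amount of protein made.

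Many of these genes show a run of this kind at an annotated start. Below are 30 bases of the gene's own strand for members named in the results, 10 before the annotated start and 20 from it on, taken from RefSeq promoter windows on GRCh38.p14. Capitals mark a run of C and T of at least 5 bases that opens with a C at the start base. RPL21, RPL34, RPL14, RPL22 and RPS3A are shown because they rose clearly in the knockout clones. RPL28 and RPL18 are shown because they were higher on fibronectin. RPS27 stands with its paralog RPS27L, and with RPS28, because a run opened at the start base in the first and not in the others. In RPS28 a run of C and T that opens with a C begins at the base after the start base, and it is left in lower case.
RPL21 (chr13:27251548-27251577, plus strand): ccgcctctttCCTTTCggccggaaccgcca
RPL34 (chr4:108620566-108620595, plus strand): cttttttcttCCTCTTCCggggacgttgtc
RPL14 (chr3:40457329-40457358, plus strand): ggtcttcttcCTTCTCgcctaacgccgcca
RPL22 (chr1:6199576-6199605, minus strand): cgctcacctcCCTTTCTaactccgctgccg
RPS3A (chr4:151099618-151099647, plus strand): cccacttccgCCCTTTTggctctctgacca
RPL28 (chr19:55385922-55385951, plus strand): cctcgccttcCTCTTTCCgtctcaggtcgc
RPL18 (chr19:48619159-48619188, minus strand): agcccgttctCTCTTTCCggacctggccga
RPS27 (chr1:153990752-153990781, plus strand): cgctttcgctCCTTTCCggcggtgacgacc
RPS27L (chr15:63157458-63157487, minus strand): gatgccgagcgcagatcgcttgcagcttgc
RPS28 (chr19:8321486-8321515, plus strand): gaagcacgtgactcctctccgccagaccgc

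A RefSeq window was matched by symbol for 65 of the 82 members. The search took a C at the start base followed by at least 4 bases that are each C or T, on the gene's strand only. Where a symbol had several windows, the longest run over them was counted, and the sequences above come from that window. A symbol with more annotated starts thus had more chances to match. It matched 47 of those 65 members (72.3%), against 1404 of all 27305 symbols with a window (5.14%). When the run was allowed to begin within 5 bases of the start, 54 members (83.1%) and 25.2% of all symbols matched. A match describes these letters and is not evidence that the start is used in these cells.

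Before the comparisons, the libraries were checked against their labels. Total counts ran from 24406001 to 33971610 per library. PDCD10 was lower in both knockout groups, with a log2 fold change against wild-type of -0.36 ± 0.08 (SE, adjusted p = 0.00186 by edgeR's quasi-likelihood test with Benjamini-Hochberg adjustment) in untreated clones and -0.44 ± 0.08 (adjusted p = 0.000326) on fibronectin. A count over the whole gene does not show whether exon 3 is intact. All 10 endothelial markers examined averaged at least 1 CPM, counts scaled to a common library size, in every group, and their summed level was 2518 to 2824 CPM in wild-type, 6039 to 6502 CPM in untreated knockout and 6251 to 7150 CPM in knockout on fibronectin libraries. Summed over 7 smooth muscle and pericyte genes, the level was 85.0 to 93.4 CPM in wild-type, 9.76 to 10.6 CPM in untreated knockout and 8.81 to 9.60 CPM on fibronectin. The 6 fibroblast genes summed to at most 2.04 CPM in any library, with LUM at 0 in all, the 5 epithelial genes to at most 1.40 CPM, with KRT14 at 0 in all, the 5 leukocyte genes to at most 3.59 CPM, and the 3 erythroid genes had 0 counts. Their part in the ribosomal protein results was not tested.

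The ribosomal protein genes together took a larger share of the RNA in the knockout clones than in wild-type. In wild-type 1, 2 and 3 they held 8.22%, 8.73% and 8.72% of all counts. In untreated knockout clones 21, 22 and 23 they held 9.56%, 9.29% and 9.89%. The same clones on fibronectin gave 11.4%, 10.2% and 9.79%. Every knockout library thus lay above every wild-type library, while the untreated and fibronectin groups overlapped, with clone 23 on fibronectin below clone 23 without it. The means were 8.56% ± 0.292, 9.58% ± 0.300 and 10.5% ± 0.847 (SD, n = 3 each), and no p is given for a sum over the members. The proteins of the large subunit held 5.17% ± 0.163, 5.81% ± 0.181 and 6.36% ± 0.505 of the counts in the same order, and those of the small subunit 3.39% ± 0.130, 3.77% ± 0.120 and 4.11% ± 0.342. As a share of summed FPKM, the unit that also divides by gene length, the members stood at 19.4% ± 0.352, 20.5% ± 0.414 and 21.8% ± 1.14. In bulk RNA these are shares of what was sequenced, so more of these mRNAs and less of other RNA per cell cannot be told apart, nor can more cells of one kind and more RNA per cell.

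**Figure D1:**
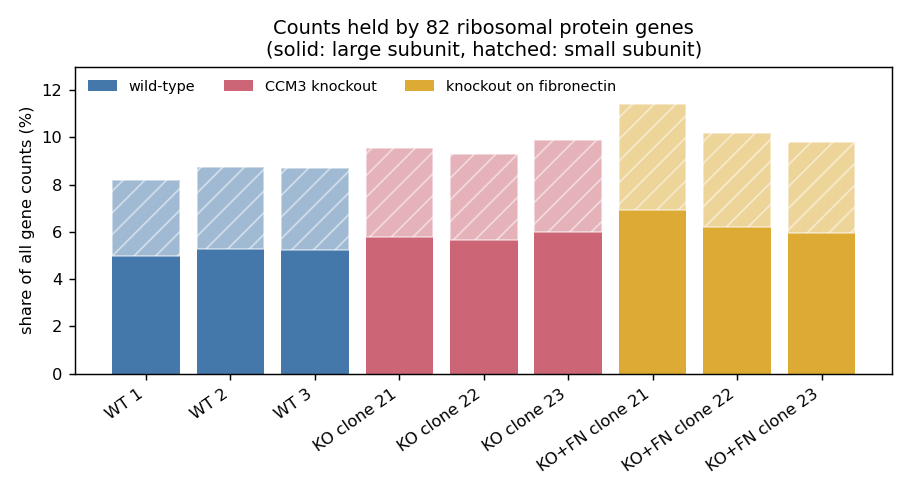
Share of all gene counts (percent, vertical axis from 0) held by the 82 ribosomal protein genes, as 1 bar for each of the 9 libraries, split into large subunit (solid) and small subunit (hatched). The 3 wild-type bars (WT) reach 8.22% to 8.73%, and the 6 knockout bars, untreated (KO) or on fibronectin (KO+FN), reach 9.29% to 11.4%.

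Levels differed widely between members. Compared per length, by mean FPKM in wild-type, the highest member was RPS6, the small-subunit protein phosphorylated by the S6 kinases, at 2498 ± 138 FPKM (SD, n = 3). RPS18 at 2232 ± 77.5 FPKM and RPL7A, a large-subunit protein, at 2146 ± 84.7 FPKM followed, and the difference between these 2 was about as large as their SDs. The median member stood at 800.4 FPKM. Among the lowest were RPL39L at 8.05 ± 1.05 FPKM and RPL36A at 66.2 ± 4.53 FPKM. FPKM values understate members whose annotated exons cover far more than the usual mRNA. The length implied by the deposited counts and FPKM was 2804 bases for RPL36A and 5226 bases for RPL28, whose coding sequences have 318 and 411 bases, and 5794 bases for RPL27A, against a median of 1119 bases. Levels below are therefore compared only within a gene, in CPM computed with TMM-corrected library sizes.

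In untreated knockout clones, 34 of the 80 tested members were higher than in wild-type and 0 were lower at an adjusted p under 0.05 (edgeR quasi-likelihood test, Benjamini-Hochberg over 13802 genes). Among all tested genes 23% had risen and 27% had fallen in this comparison. The other 46 members did not pass the test. At an unadjusted p under 0.05, 37 members were higher and 0 lower, where 25.6% of all tested genes were higher and 30.4% lower. DESeq2 and limma voom also called 0 lower. A correction for GC content and length described further on called 4 lower, where it called 23.4% of its genes lower. The log2 fold changes were small and close together, from -0.22 to 0.48 with a median of 0.17, against a median of -0.03 over all tested genes. Of the 80 members, 69 had a positive fold change. In 42 members (52.5%) all 3 knockout libraries lay above all 3 wild-type libraries, against 28.2% of all tested genes, and in 0 members did they all lie below, against 33.3%. When 1 library was left out in turn, 27 of the 34 kept their call each time, and RPL11, RPL13, RPL27A, RPL29, RPLP0, RPS18 and RPS20 lost it at least once.

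**Figure D2:**
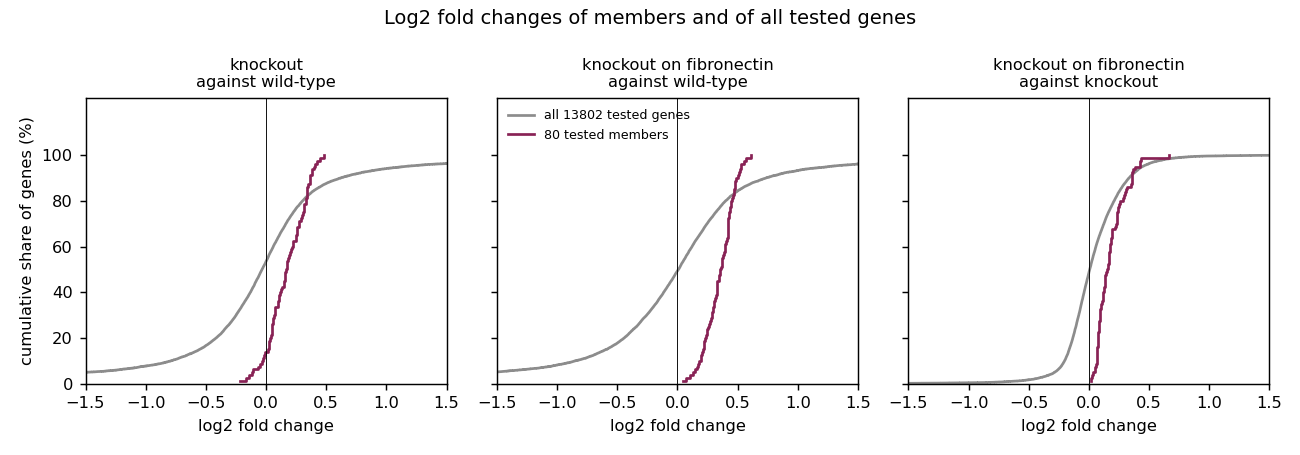
Cumulative share of genes (percent, vertical axis) by log2 fold change (horizontal axis) for the 80 tested members and all 13802 tested genes in 3 comparisons. The members' curve is steep and shifted to the right, with medians of 0.17 for knockout against wild-type, 0.36 for knockout on fibronectin against wild-type and 0.16 for knockout on fibronectin against knockout.

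The 8 members with the smallest p in this comparison came from both subunits. RPL21, a large-subunit protein, measured 972, 1049 and 1105 CPM in wild-type 1, 2 and 3, 1442, 1359 and 1458 CPM in knockout clones 21, 22 and 23, and 1667, 1404 and 1412 CPM in the same clones on fibronectin. All 6 knockout libraries were higher than all wild-type libraries. RPL21 rose 1.36-fold in untreated clones (log2 0.45 ± 0.08 SE, edgeR adjusted p = 0.000262) and its log2 fold change on fibronectin against wild-type was 0.52 (adjusted p = 5.75e-05).

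RPL34, also of the large subunit, had the largest fold change of all members in untreated clones. It measured 572, 626 and 667 CPM in wild-type, 903, 812 and 890 CPM in untreated knockout and 1067, 878 and 821 CPM on fibronectin. The rise was 1.40-fold (log2 0.48 ± 0.09 SE, edgeR adjusted p = 0.000828), and 1.48-fold on fibronectin. The knockout groups did not overlap with wild-type, but they overlapped with each other.

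RPL30, whose yeast counterpart binds its own transcript and blocks its splicing, measured 682, 763 and 787 CPM in wild-type, 1012, 944 and 1010 CPM in untreated knockout and 1157, 1030 and 977 CPM on fibronectin. RPS15A, of the small subunit, measured 792, 869 and 905 CPM, then 1184, 1077 and 1188 CPM, then 1362, 1274 and 1127 CPM in the same order. In both genes the lowest knockout library was higher than the highest wild-type library. The log2 fold changes in untreated clones were 0.41 ± 0.07 for RPL30 (SE, edgeR adjusted p = 0.000456) and 0.43 ± 0.08 for RPS15A (adjusted p = 0.000471).

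RPL7, RPL14, RPL22 and RPS3A completed the 8, with log2 fold changes of 0.37, 0.34, 0.34 and 0.38 in untreated clones and 0.44, 0.42, 0.36 and 0.47 on fibronectin against wild-type. RPS3A, a small-subunit protein, ran from 1610 to 1806 CPM in wild-type, from 2102 to 2300 CPM in untreated knockout and from 2199 to 2642 CPM on fibronectin. RPL22, a large-subunit protein that also binds a small RNA of Epstein-Barr virus, ran from 593 to 657 CPM, from 762 to 807 CPM and from 750 to 879 CPM. None of the 8 overlapped with wild-type in either knockout group.

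**Figure D3:**
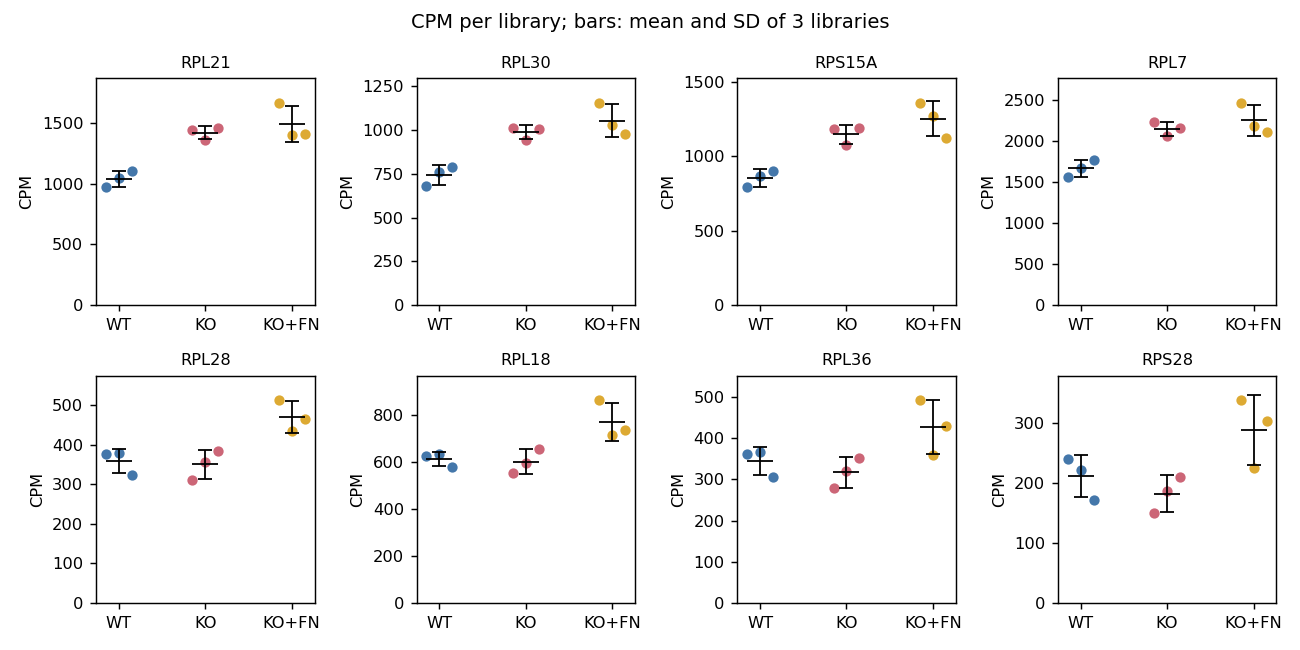
Level (CPM, vertical axis from 0) of 8 members in wild-type (WT), untreated knockout (KO) and knockout on fibronectin (KO+FN), with a point for each library and bars for the mean and SD of each group of 3. RPL21, RPL30, RPS15A and RPL7 separate from wild-type in both knockout groups, whereas in RPL28, RPL18, RPL36 and RPS28 the untreated clones overlap with wild-type and lie below the libraries on fibronectin.

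On fibronectin, 70 of the 80 tested members were higher than in wild-type and 0 were lower (edgeR, adjusted p under 0.05), where 29% of all tested genes had risen and 29.6% had fallen. All 80 had a positive log2 fold change, from 0.05 to 0.61 with a median of 0.36, against 0.01 for all tested genes. At an unadjusted p under 0.05, 74 were higher and 0 lower, where 31.4% of all tested genes were higher and 31.5% lower. DESeq2 and limma voom each called 71 higher and 0 lower, where they called 24.3% and 28.9% of their genes higher. In 61 members (76.2%) the groups did not overlap, with knockout above, against 31.6% of all tested genes. Among the 10 that did not pass were RPL23, RPL26, RPL31, RPL39, RPS4X, RPS6, RPS7, RPS27 and RPS28. When 1 library was left out in turn, 55 of the 70 kept their call each time. All 34 members that had risen in the untreated clones had also risen here, along with 36 others, but both counts rest on the same wild-type libraries. The authors' deposited tables listed 81 members, of which 46 were higher and 0 lower in untreated knockout (16.5% of all listed genes were higher there and 16.5% lower) and 70 higher and 0 lower on fibronectin (17.7% and 18.3% of all listed genes).

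**Figure D4:**
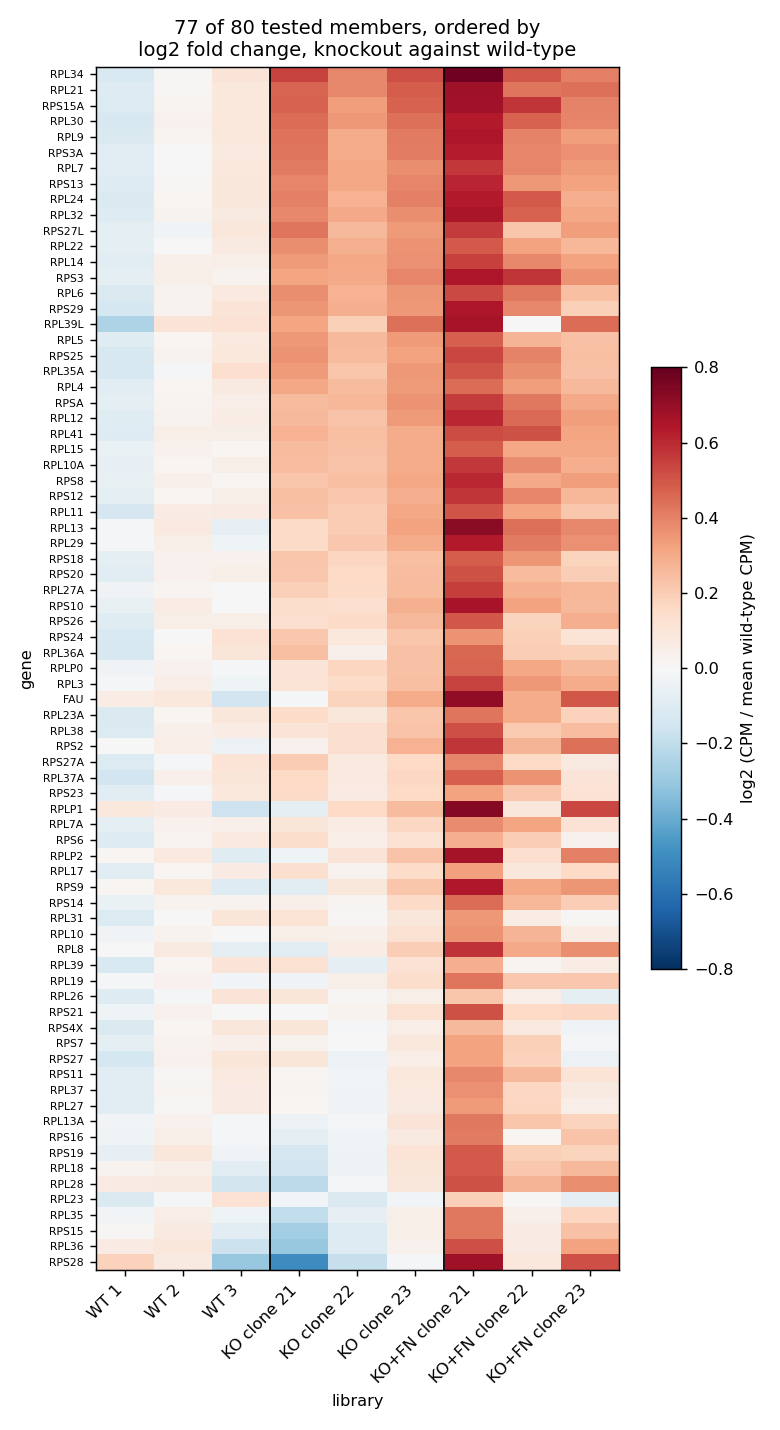
Log2 ratio of each tested member's level to its mean over the 3 wild-type libraries (colour scale) in the 9 libraries (columns), with 77 of the 80 members as rows in order of their log2 fold change in untreated knockout. Values past an end of the scale take its end colour. Counted over all 80 members, clone 21 on fibronectin is above the wild-type mean in every one, and the other knockout libraries in 61 to 79.

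The rise extended over both subunits. Of the 47 tested large-subunit genes, 22 had risen (46.8%) and 0 had fallen in untreated clones (median log2 fold change 0.17). On fibronectin 42 of them had risen (89.4%, median 0.36). Of the 33 small-subunit genes, 12 had risen (36.4%) and 0 had fallen in untreated clones (median 0.16). On fibronectin 28 of them had risen (84.8%, median 0.34). Members grouped by role in the ribosome gave the following counts, with 0 fallen in each of the groups named. All these counts stand against 23% of all tested genes risen and 27% fallen in untreated clones, and 29% and 29.6% on fibronectin.

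The acidic stalk proteins RPLP0, RPLP1 and RPLP2 recruit the elongation factors to the large subunit. RPLP0 measured 2510, 2617 and 2541 CPM in wild-type, 2747, 2877 and 3013 CPM in untreated knockout and 3531, 3167 and 3061 CPM on fibronectin. It was the only one of the 3 to pass in untreated clones (log2 0.17 ± 0.07 SE, edgeR adjusted p = 0.0437), a call lost without any 1 of the wild-type libraries or without knockout clone 22 or 23 (adjusted p = 0.0669 to 0.151). All 3 passed on fibronectin, with log2 fold changes of 0.35, 0.48 and 0.42. RPLP1 varied most among them, at 1339, 860 and 1168 CPM in clones 21, 22 and 23 on fibronectin, with clone 22 within the untreated range of 765 to 961 CPM, and its call was lost without wild-type 3 or without clone 21 or 23 on fibronectin (adjusted p = 0.0529 to 0.0877).

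RPL5 and RPL11 bind the 5S ribosomal RNA, and outside the ribosome they inhibit MDM2, the ligase that degrades p53. RPL5 measured 1512, 1637 and 1711 CPM in wild-type, 2059, 1940 and 2051 CPM in untreated knockout and 2253, 1956 and 1907 CPM on fibronectin, with a 1.25-fold rise in untreated clones (log2 0.32 ± 0.07 SE, edgeR adjusted p = 0.00270). RPL11 measured 1130, 1292 and 1300 CPM, then 1463, 1428 and 1539 CPM, then 1758, 1544 and 1441 CPM. Neither gene's knockout groups overlapped with wild-type. The call for RPL11 in untreated clones (log2 0.25, adjusted p = 0.0175) was lost without wild-type 1 (adjusted p = 0.0539) or without knockout clone 23 (adjusted p = 0.0640).

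RPL5 and RPL11 also belong to the genes mutated in Diamond-Blackfan anemia, an inherited failure of red cell production. Of 8 such genes tested, 3 had risen in untreated clones (RPL5, RPL11 and RPL35A), which is 37.5% against 42.5% of all members and 23% of all tested genes. On fibronectin 7 had risen, all but RPS7, which is 87.5% as over all members. RPS19, the gene most often mutated in that disease, measured 887, 992 and 912 CPM in wild-type, 849, 905 and 1005 CPM in untreated knockout and 1305, 1060 and 1051 CPM on fibronectin. Its untreated clones overlapped with wild-type, with a log2 fold change of -0.02 ± 0.09 (SE, edgeR adjusted p = 0.896) whose sign changed with the scaling used, whereas on fibronectin it was 0.29 ± 0.09 (adjusted p = 0.0136).

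RPS2, RPS3 and RPSA sit at the mRNA channel and head of the small subunit, and RPSA is also known as the precursor of a laminin receptor. RPSA measured 1485, 1591 and 1625 CPM in wild-type, 1868, 1883 and 2011 CPM in untreated knockout and 2304, 2098 and 1935 CPM on fibronectin. It rose in untreated clones (log2 0.29 ± 0.07 SE, edgeR adjusted p = 0.00348), as did RPS3 (log2 0.34), while RPS2 stood at log2 0.15 (adjusted p = 0.141). All 3 rose on fibronectin against wild-type, by 0.43 each for RPSA and RPS2 and by 0.53 for RPS3 on the log2 scale.

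Of a list of 4 proteins at the tunnel through which the new chain leaves the large subunit, RPL4 and RPL22 had risen in untreated clones, at log2 fold changes of 0.30 and 0.34. RPL17 at 0.10 and RPL39 at 0.06 did not pass. On fibronectin RPL17 passed too (log2 0.20, edgeR adjusted p = 0.0270, lost without wild-type 1 or 2 or clone 21 on fibronectin, at 0.0570 to 0.113), and RPL39 stood at 0.13 (adjusted p = 0.201).

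RPS6, whose phosphorylation is used as a readout of mTORC1, was among the members that did not pass in either comparison. It measured 2254, 2461 and 2561 CPM in wild-type, 2673, 2519 and 2645 CPM in untreated knockout and 2966, 2780 and 2482 CPM on fibronectin, so that the groups overlapped. The log2 fold changes were 0.11 ± 0.07 (SE, edgeR adjusted p = 0.243) and 0.18 ± 0.07 (adjusted p = 0.0519).

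The 4 genes on the X chromosome, RPS4X, RPL10, RPL36A and RPL39, had log2 fold changes of 0.05, 0.07, 0.17 and 0.06 in untreated clones, and none passed the edgeR test. On fibronectin RPL10 (log2 0.24, adjusted p = 0.0127) and RPL36A (log2 0.29, adjusted p = 0.0106, but 0.0534 without wild-type 1) had risen. RPL10, a late-joining large-subunit protein near the site that binds the tRNA, measured 2045, 2122 and 2077 CPM in wild-type, 2146, 2139 and 2262 CPM in untreated knockout and 2670, 2513 and 2170 CPM on fibronectin. RPS27A and FAU encode a ribosomal protein fused to ubiquitin or a ubiquitin-like protein. Their log2 fold changes were 0.15 and 0.16 in untreated clones, neither past the test, and 0.21 and 0.51 on fibronectin, where both had risen. The call of RPS27A there (edgeR adjusted p = 0.0405) was lost without wild-type 1 or 2, untreated clone 23 or clone 21 on fibronectin (adjusted p = 0.0506 to 0.152).

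Some members are paralogs with restricted expression in the body. RPL10L, an autosomal copy of RPL10 used in the testis, had 0 counts in all 9 libraries. RPL3L, the muscle form of RPL3, had 0 to 4 counts per library and was not tested. RPL3 itself measured 2888, 3034 and 2853 CPM in wild-type, 3162, 3243 and 3461 CPM in untreated knockout and 4246, 3714 and 3596 CPM on fibronectin, and its groups did not overlap. It missed the threshold in untreated clones (log2 0.17 ± 0.07 SE, edgeR adjusted p = 0.0609) and passed on fibronectin (log2 0.40, adjusted p = 0.000314).

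RPL39L, a testis-enriched paralog of RPL39, was counted at 5.58, 7.13 and 7.19 CPM in wild-type, 8.27, 7.58 and 8.99 CPM in untreated knockout and 10.5, 6.62 and 9.06 CPM on fibronectin. Its fold change passed only on fibronectin, at an adjusted p of 0.0472 by edgeR, which was lost when any 1 library other than untreated clone 21 or clone 22 on fibronectin was left out (adjusted p = 0.0521 to 0.175). RPS27L, a p53-responsive paralog of RPS27, differed from its parent. It measured 222, 230 and 249 CPM, then 315, 279 and 296 CPM, then 345, 273 and 295 CPM, with both knockout groups above wild-type (log2 0.34 ± 0.08 SE, edgeR adjusted p = 0.00374 in untreated clones). RPS27 measured 546, 618 and 644 CPM, then 644, 582 and 627 CPM, then 752, 685 and 584 CPM, with overlapping groups and log2 fold changes of 0.04 and 0.16 that did not pass. The difference between the paralogs was not tested.

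Ribosomal protein genes have many processed pseudogenes, and 28 rows of the table carried such a symbol. Counts in these rows came to 0.0739% to 0.0986% of the members' counts in each library.

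The direct comparison of clones with and without fibronectin gave small differences. Treating the libraries as unpaired, edgeR called 0 members higher and 0 lower at an adjusted p under 0.05, where 0.00725% of all tested genes were higher (1 gene) and 0% were lower. At an unadjusted p under 0.05, 37 members were higher and 0 lower, where 14.4% of all tested genes were higher and 7.90% lower. Limma voom also called 0, and DESeq2 called 19 higher and 0 lower, where it called 5.75% of its tested genes higher and 3.82% lower. All 80 log2 fold changes were positive, from 0.02 to 0.66 with a median of 0.16, against 0.01 over all tested genes. The number of positive ones was 77 with uncorrected library totals and 58 without clone 21 on fibronectin. In 23 members (28.7%) all fibronectin libraries lay above all untreated knockout libraries, against 14.8% of all tested genes.

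The same 3 clones were measured with and without fibronectin, and with the clone as a block 10 members had risen and 0 had fallen (edgeR, adjusted p under 0.05), where 4.97% of all tested genes had risen and 1.81% had fallen. They included RPL8, RPL13, RPL18, RPL28, RPL36, RPS2, RPS9 and RPS15, and the median over all members was 0.13. Of the 10, 9 were not called in untreated knockout against wild-type, RPL13 being the exception, where 46 of all 80 members were not called. The untreated knockout libraries enter these 2 comparisons with opposite sign, so the calls are not independent. A member that is low in those libraries is less likely to be called in the one and more likely in the other. In the authors' deposited table of this comparison 6 members were higher and 0 lower, where 0.555% of all listed genes were higher and 0.0751% lower.

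The ratios of the single clones are given next, from 1 library with and 1 without fibronectin each. In clone 21 all 80 members were higher with fibronectin than without, by a median log2 ratio of 0.30, from 0.12 for RPL22 to 1.18 for RPS28. In clone 22, 76 of 80 were higher (median 0.14), from -0.20 for RPL39L to 0.28 for RPL28. In clone 23, 34 of 80 were higher (median -0.03), from -0.16 for RPS29 to 0.53 for RPS28. Over all tested genes, 51.9%, 52.2% and 50% were higher in clones 21, 22 and 23. These ratios carry no test. Without clone 21 on fibronectin the median over the members in the unpaired fit was 0.06 in place of 0.16, and the difference in their share of counts was 0.420 percentage points in place of 0.894. Without clone 22 on fibronectin the unpaired fit called 15 members higher, where it called 2.95% of all tested genes higher and 0.536% lower.

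RPL28, a large-subunit protein, had the smallest p of the members in the blocked comparison. It measured 376, 378 and 324 CPM in wild-type, 310, 357 and 383 CPM in untreated clones 21, 22 and 23 and 512, 434 and 465 CPM in those clones on fibronectin. The untreated clones overlapped with wild-type, whereas every fibronectin library lay above all other libraries. The blocked log2 fold change was 0.40 ± 0.08 (SE, edgeR adjusted p = 0.0139), and it was positive in each clone, at 0.72, 0.28 and 0.28.

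RPL18, also of the large subunit, measured 625, 634 and 579 CPM in wild-type, 551, 594 and 656 CPM in untreated knockout and 861, 712 and 733 CPM on fibronectin. The fibronectin libraries lay above the untreated knockout libraries, which overlapped with wild-type. The blocked log2 fold change was 0.33 ± 0.08 (SE, edgeR adjusted p = 0.0220), and it was positive in each clone, at 0.64, 0.26 and 0.16.

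RPS28 had the largest fold change of the members on fibronectin against untreated knockout, and one of the largest spreads over the untreated clones. It was not called on fibronectin against wild-type. It measured 241, 222 and 172 CPM in wild-type, 149, 187 and 210 CPM in untreated clones and 338, 225 and 303 CPM on fibronectin, with no overlap between the knockout groups. The blocked log2 fold change of 0.63 ± 0.19 (SE, edgeR adjusted p = 0.127) did not pass. RPL36, of the large subunit, measured 360, 367 and 305 CPM in wild-type, 279, 320 and 353 CPM in untreated clones and 492, 360 and 430 CPM on fibronectin, and its blocked log2 fold change of 0.40 passed (adjusted p = 0.0473).

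Within the family, the fold changes followed the base composition of the coding sequence in the comparisons that include untreated knockout libraries. Against wild-type on fibronectin they hardly did. This composition was available for 79 of the 80 tested members and 84.1% of all tested genes. It ran from 42.1% GC in RPS27L to 63.0% in RPS15. Across the 79 members, log2 fold change and coding GC had Pearson r = -0.59 and Spearman rho = -0.57 for untreated knockout against wild-type, where all 11611 tested genes with a value had 0.03 and 0.01. For knockout on fibronectin against wild-type the members had r = 0.11 and rho = 0.06, and all genes 0.13 and 0.26. For fibronectin against untreated knockout the members had r = 0.87 and rho = 0.89, and all genes 0.48 and 0.63. These are descriptions across genes, which share the same libraries and are not independent replicates. Untreated knockout libraries enter the comparisons with wild-type and with fibronectin with opposite sign, so those values are not independent of each other. The members' log2 coding length showed Spearman rho values of 0.10, 0.08 and -0.02 in the 3 comparisons. All 11611 tested genes with a value had -0.21, -0.27 and -0.25, so that shorter genes tended to have higher fold changes. The median coding length of the members was 453 bases.

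**Figure D5:**
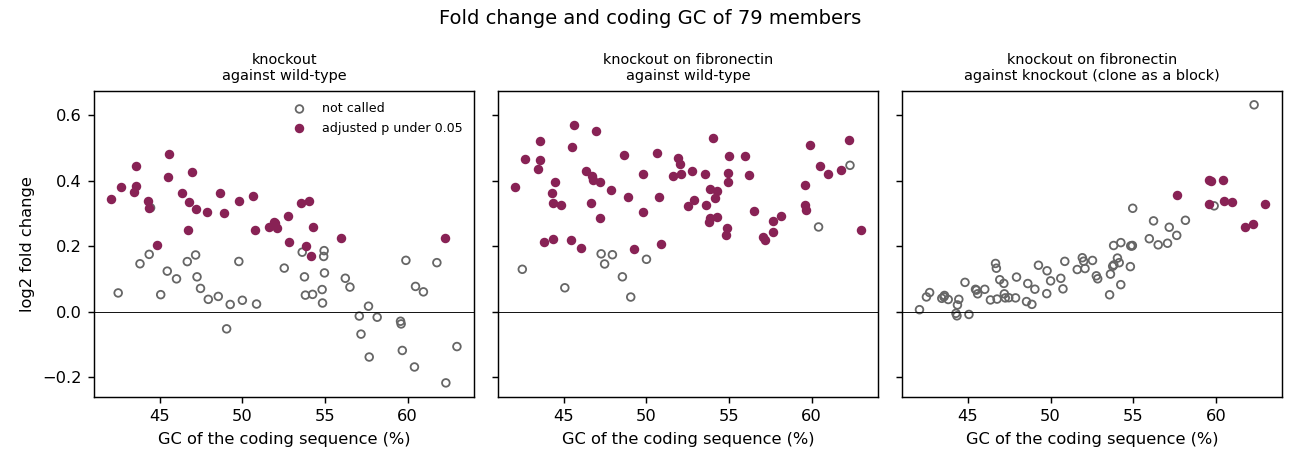
Log2 fold change (vertical axis) against GC of the coding sequence (percent, horizontal axis) for 79 members in 3 comparisons, the last with the clone as a block, with filled points for an edgeR adjusted p under 0.05. The points fall with GC in untreated knockout against wild-type and rise with it on fibronectin against knockout, where the 10 members called on fibronectin all lie between 57.7% and 63.0%.

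Split by GC, the members gave different counts in the different comparisons. Of the 26 members with the lowest GC (42.1% to 47.5%), 15 had risen in untreated clones, with a median log2 fold change of 0.31, and of the 26 in the middle (47.9% to 54.0%) 15 had risen, with a median of 0.23. Of the 27 with the highest GC (54.2% to 63.0%), 4 had risen, with a median of 0.06. Among all tested genes 23% had risen, a larger share than in this last class and a smaller one than in the other classes. Against wild-type on fibronectin, 22, 22 and 25 members of these classes had risen, with medians of 0.37, 0.35 and 0.35, where 29% of all tested genes had risen. All 10 members called in the blocked comparison belonged to the class with the highest GC, where 4.97% of all tested genes had risen.

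Levels of all genes also moved with GC and with coding length between libraries. The slope of the log2 ratio to the mean of all libraries, per 10 percentage points of GC over all genes with a value, was -0.04, -0.03 and -0.12 in wild-type 1, 2 and 3, -0.11, -0.02 and 0.01 in untreated clones 21, 22 and 23, and 0.12, 0.07 and 0.10 on fibronectin. The fibronectin libraries were thus the 3 with the highest slopes. Over the members alone the slopes were 0.13, 0.08 and -0.07, then -0.23, -0.06 and -0.05, then 0.08, 0.01 and 0.11, the lowest being that of untreated clone 21. The slope with log2 coding length over all genes was 0.10, 0.06 and 0.06 in wild-type 1, 2 and 3. It was -0.02, 0.004 and -0.03 in untreated clones 21, 22 and 23, and -0.12, -0.01 and -0.05 on fibronectin. Every knockout library thus had a lower slope with length than every wild-type library.

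With an offset that removes each library's trend with coding GC and length, chosen after seeing the data, 36 of 79 members (45.6%) had risen in untreated clones, against 35.7% of the genes tested, and 4 had fallen (RPL36 and RPS15 among them), against 23.4%. The median log2 fold change was then 0.12, against 0.06 over all genes. On fibronectin against wild-type 52 members (65.8%) had risen and 0 had fallen, against 37.5% and 25.3% of genes, with a median of 0.20, against 0.07. With the offset and the clone as a block, 6 members had risen on fibronectin and 0 had fallen, against 2.2% and 3.13% of genes, among them RPL18, RPL28, RPL36 and RPS28. RPL10, RPS19 and RPL36 lost their calls on fibronectin against wild-type under this offset, with edgeR adjusted p-values of 0.169, 0.268 and 0.630. For RPL36 that call was also lost when the fit had no offset but lacked any 1 of the wild-type libraries, untreated clone 22, or clone 21 or 23 on fibronectin (adjusted p = 0.0509 to 0.148). Whether the trends with GC and length arise in the cells or in library preparation was not tested.

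Members that rose and members that did not pass carried the TOP run in similar shares, a difference that was not tested. It was found at the start base in 20 of the 28 members with a window that had risen in untreated clones (71.4%) and in 27 of the 36 that were not called (75.0%). RPS28, without such a run at the start base itself, and RPL28, with one, had both been higher on fibronectin than without it in all 3 clones. In RPS28 a run begins at the base after the start. It therefore counts as a match when the run may begin within 5 bases, and the pair does not contrast a gene with and a gene without the motif.

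Related genes outside the family were examined as lists, whose counts stand against 23% of all tested genes risen and 27% fallen in untreated clones and 29% risen and 29.6% fallen on fibronectin. Of 6 ribosomal protein genes and paralogs not caught by the symbol rule, RPL36AL had risen in untreated clones (log2 0.37, edgeR adjusted p = 0.00298) and 0 had fallen, and on fibronectin 3 had risen, RPL36AL and RPL26L1 among them, and RPL7L1 had fallen. Of 21 translation factors and other genes with TOP mRNAs, 10 had risen (47.6%) and 2 had fallen in untreated clones, with a median log2 fold change of 0.16, and 13 had risen (61.9%) and 1 had fallen on fibronectin, with a median of 0.19. PABPC1, the poly(A)-binding protein, measured 1068, 1084 and 1097 CPM in wild-type, 1770, 1809 and 1778 CPM in untreated knockout and 1720, 1786 and 1851 CPM on fibronectin, a larger log2 fold change (0.72, adjusted p = 1.2e-07) than that of any ribosomal protein gene. EIF3F, a subunit of an initiation factor, rose by 0.42 on the log2 scale, and IPO7, an import receptor that carries ribosomal proteins into the nucleus, fell by 0.48, both in untreated clones.

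Of 36 ribosome biogenesis genes, 11 had risen (30.6%, against 23% of all tested genes) and 5 had fallen in untreated clones, with a median log2 fold change of 0.05. On fibronectin 16 had risen (44.4%, against 29%) and 3 had fallen, with a median of 0.11. NOB1, the nuclease that completes the small-subunit RNA, rose from 77.2 ± 1.09 CPM in wild-type to 123 ± 10.1 CPM in untreated knockout (SD, n = 3, log2 0.68, edgeR adjusted p = 9.69e-07), and NOP14 rose by 0.37. RRP12, a factor in the maturation and export of subunits, fell by 0.45 on the log2 scale.

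Of 23 genes of the mTORC1 pathway and MYC, 6 had risen (26.1%) and 6 had fallen in untreated clones, shares near the 23% and 27% of all tested genes, with a median log2 fold change of -0.08. On fibronectin 9 had risen (39.1%, against 29% of all tested genes) and 7 had fallen, with a median of 0.07. Those with the smallest p were DDIT4 and SESN1, which inhibit mTORC1, and MAX, the partner of MYC, with log2 fold changes of 0.77, 0.50 and 0.41. DDIT4 measured 50.9, 54.1 and 47.6 CPM in wild-type, 77.7, 85.4 and 96.3 CPM in untreated knockout and 100.5, 98.1 and 101 CPM on fibronectin, with no overlap with wild-type. The mRNA level of these genes does not measure the activity of the kinase.

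The mitochondrial ribosomal protein genes, which serve the separate ribosome of that organelle, were counted in the same way. Of 75 tested, 29 had risen (38.7%, against 23% of all tested genes) and 4 had fallen (against 27%) in untreated clones, with a median log2 fold change of 0.14. On fibronectin 45 had risen (60%, against 29%) and 1 had fallen (against 29.6%), with a median of 0.25. MRPL9, MRPS18B and MRPL45 had the smallest p, with log2 fold changes of 0.69, 0.52 and 0.38 in untreated clones. With the clone as a block, 9 of these genes had risen on fibronectin and 0 had fallen, and of the translation factor, biogenesis and mTORC1 lists 2, 4 and 5 had risen and 0 had fallen. Those are 12.0%, 9.52%, 11.1% and 21.7% of the 4 lists, against 4.97% of all tested genes risen and 1.81% fallen. No difference between these lists and the cytosolic ribosomal protein genes was tested.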

How the data were processed

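RNA from 9 libraries was prepared with a stranded TruSeq mRNA kit, per the labels. The authors deposited raw counts per gene symbol and FPKM values for the same libraries. STAR and HTSeq, with builds hg19 and GRCh37, are named per the submitters' processing notes, with no versions. Whether counting used strand is not given in the sources used here. Tables of the authors' own comparisons were deposited too, giving for each gene its log2 fold change and raw and adjusted p-values.

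Counts were tested with edgeR 4.0.16 in R 4.3.3 (limma 3.58.1), by its quasi-likelihood F test (robust), with TMM scaling, filterByExpr defaults (minimum count 10, total 15) and 1 fit over the 9 libraries, 3 per group. Adjusted p-values are Benjamini-Hochberg over all tested genes, with 0.05 as the threshold. FPKM values served for levels per length. Coding GC and length came from GENCODE, whose build (GRCh38) differs from the files', so only its sequences' properties were used. Alternatives were DESeq2 1.42.0, limma voom, other scalings and filters, each library left out, the clone as a block, and a loess offset for GC and length (span 0.5). The script was tested on simulated counts with known changes in genes drawn from all tested genes. In the 3 comparisons it recovered 45% to 47% of genes changed by 0.4 on the log2 scale, and 80% to 90% of those changed by 1. A gene that did not pass is therefore not shown to be unchanged.

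The clones 21, 22 and 23 are the same in both knockout groups per the labels. Deviations from the group means correlated at r = 0.38, 0.38 and 0.47 within a clone over 13257 genes, and at -0.37 to -0.07 between clones. For each gene the deviations of the 3 libraries of a group sum to 0. Positive values within clones therefore bring negative ones between clones by the calculation itself.

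Members described with every library were drawn from the 8 with the smallest p against wild-type, the 4 with the smallest blocked p, paralogs with their parents, the highest and lowest by FPKM, the 3 with the largest spread, RPL5, RPL11, RPS19, RPS6 and RPSA. Up to 3 genes of each related list were taken by p. RPLP0, RPLP1, RPL3 and RPL10 are given as group examples, and further members named with a fold change were chosen after their values were seen. The members, lists and rules were chosen with earlier results of these data known. A few members are not reported here by name, though they are in the counts of members. All 9 columns had a sample.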

Additional observations from a re-analysis of the deposited data

How the results depend on the processing

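The count of members risen in untreated knockout against wild-type ranged over 27 to 44 (34 reported) when 1 library was left out. In those fits 19.7% to 26.3% of all tested genes had risen. The count on fibronectin against wild-type ranged over 58 to 72 (70 reported), where 25.1% to 30.2% of all tested genes had risen. With the clone as a replicate block, 10 members rose on fibronectin against untreated knockout, in place of 0, and 4.97% of all tested genes rose. DESeq2 called 19 (5.75% of all tested genes), no filter on low counts 7 (1.62%), and the offset with the block 6 (2.2%). Leaving out libraries gave 0 to 15 (0% to 2.95%). With the offset for GC and length 4 members fell in untreated knockout, in place of 0, where 23.4% of the genes tested fell. The difference in share of counts between fibronectin and wild-type, 1.92 percentage points, was 1.44 to 2.26 with 1 library left out, that between fibronectin and untreated knockout, 0.894, was 0.420 to 1.24, and that between untreated knockout and wild-type, 1.02, was 0.856 to 1.17. The cause of these shifts was not tested.
Some uncalled changes in untreated knockout against wild-type were near 0 and switched sign. RPS19 (-0.02 on the log2 scale) was 0.0026 with DESeq2's size factors, 0.012 with factors from genes other than the members, 0.0047 with DESeq2, 0.0037 with a mean of at least 100 counts and 0.013 with only the 2 groups, and -0.082 to 0.062 with 1 library left out. RPL18 (-0.03) was 0.0013 with only the 2 groups and -0.095 to 0.053 with 1 library left out, and RPL28 (-0.04) was -0.10 to 0.066. RPS27 (0.04) was -0.0066 to 0.087 with 1 library left out and -0.048 with the offset, and RPL39 (0.06) was -0.030 with the offset. On fibronectin against wild-type RPS27 (0.16) was -0.0080 with the offset. RPL39L, with 151 to 306 counts per library, had a standard error of 0.16 in untreated knockout against wild-type, against a median of 0.08 over the members.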
